A study of Mus musculus with 28 samples.

Results

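Transcription factors of epidermal differentiation were followed as a set of 9 genes, named by symbol and read in all 12 RNA-seq libraries of the study: Trp63, Klf4, Zfp750, Cebpb, Gata3, Grhl1, Grhl3, Ovol1 and Prdm1. They are 9 of the 56691 gene IDs in the bulge table, of the 47243 symbols in the first hair germ table and of the 57010 IDs in the second. Skin cells of conditional Alkbh5 knockout (cKO) mice were set against cells of wild-type (WT) mice. Alkbh5 is an RNA demethylase that erases N6-methyladenosine (m6A). All mice were at postnatal day 69. The 3 datasets held 2 cKO and 2 WT mice each: bulge stem cells by SHERRY2 from 200 ng of RNA, hair germ stem cells by SHERRY2 from 40 ng, and SMART-seq of hair germ stem cells from 40 ng. SHERRY2 tags hybrids of RNA and cDNA directly with a transposase, whereas SMART-seq amplifies full-length cDNA. The bulge and the hair germ are the neighbouring stem cell compartments at the base of the resting hair follicle. Neither the markers used for sorting, nor the promoter driving Cre, nor which exon was removed is given in the labels.

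Keratinocytes leave the basal layer of the epidermis, stop dividing, make keratins of the spinous layer and end as a cornified barrier. Trp63 encodes p63, which maintains the epithelial lineage and acts near the top of this programme, and in human keratinocytes it activates Zfp750, which in turn activates Klf4. Cebpb acts in early differentiation, and Klf4, Grhl3 and Prdm1 act in later steps. Ovol1 restrains the growth of cells that have begun to differentiate, Gata3 serves the barrier and the inner root sheath of the hair, and Grhl1 regulates desmosomal cadherins. Several of these genes also have roles in the follicle and its sebaceous gland, so their RNA in sorted follicle cells is no measure of interfollicular differentiation alone.

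The bulge libraries held 14676168 to 21187283 reads on genes and the SMART-seq libraries 9001396 to 14416601. The hair germ SHERRY2 libraries were far shallower, at 1526070 and 2317407 reads in cKO mice 1 and 2, against 1513001 and 488648 reads in WT mice 1 and 2. Alkbh5 itself, on the scale of TMM-scaled CPM (reads per library size after scaling for composition), was at 4.21 and 2.38 in bulge cKO mice, against 107 and 96.1 in bulge WT mice. In hair germ SHERRY2 it was at 19.8 and 13.1 normalized counts in cKO mice, against 93.0 and 47.4 in WT mice. These values came from 27 and 16 reads in cKO mice, against 95 and 30 reads in WT mice. The groups did not overlap, but Alkbh5 did not pass the main test of that dataset. In the SMART-seq dataset the libraries labelled cKO held 83.5 and 106 CPM of Alkbh5, against 136 and 94.2 CPM in WT mice, so the groups overlapped and Alkbh5 did not bear out the labels there. Reads of Xist and of Y-linked genes marked 4 libraries as male: bulge WT mouse 2, hair germ SHERRY2 cKO mouse 1, and mouse 2 of both genotypes in SMART-seq. Krt15, a bulge marker, stood at 4736 and 4905 CPM in bulge cKO mice, against 8067 and 8316 CPM in bulge WT mice, and was also abundant in both hair germ datasets. Krt15 did not pass the test (adjusted p = 0.0982, edgeR), and the 14 bulge markers held 0 calls, 5 positive and 9 negative log2 fold changes and a median of -0.09. That median was not steady, at -0.76 without cKO mouse 1, 0.21 without cKO mouse 2, -0.11 without WT mouse 1 and -0.21 without WT mouse 2. By DESeq2 2 of the 14 fell, beside 621 of 13367 genes. Lef1, a hair germ marker, stood at 0.928 and 0.808 CPM in bulge cKO mice and 3.37 and 2.70 CPM in bulge WT mice (adjusted p = 0.126, edgeR). The 11 hair germ markers tested in the bulge held 0 calls, 6 positive and 5 negative log2 fold changes and a median of 0.02. With 1 library left out their median ran from -0.40 without cKO mouse 1 to 0.13 without WT mouse 1. In the SMART-seq dataset Lef1 stood at 12.3 and 8.83 CPM in the libraries labelled cKO and 24.0 and 26.6 CPM in WT libraries. It was not called there (log2 fold change -1.26), and 12.5% of genes had both libraries labelled cKO below both WT libraries. The 12 hair germ markers held 0 calls there, 2 positive and 10 negative log2 fold changes and a median of -0.53. In hair germ SHERRY2 Lef1 was high in cKO mouse 1 alone.

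Set side by side per exonic length, the 9 genes spanned a wide range in the bulge and kept Klf4 at the top in every dataset. Klf4, a zinc finger factor of late differentiation and barrier formation, averaged 367 ± 104 FPKM (SD over 4 libraries) in the bulge, ranking 102 from the top among 26954 genes with a read. Trp63 averaged 115 ± 23.4 FPKM and Gata3 98.1 ± 16.6 FPKM, and the ranges of these 2 genes overlapped. Cebpb, a basic leucine zipper factor of early differentiation, averaged 44.2 ± 17.8 FPKM and overlapped with Zfp750 at 36.2 ± 7.82 FPKM. Grhl1 averaged 20.5 ± 2.07 FPKM, Grhl3 15.3 ± 4.30 FPKM and Ovol1 8.23 ± 2.68 FPKM, each overlapping with its neighbour in this order. Prdm1, which encodes the repressor Blimp1, was lowest at 1.16 ± 0.45 FPKM, with no overlap with Ovol1, and ranked 12445 from the top.

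The order differed in part in the hair germ datasets, where RPKM (reads scaled for exonic length and library size) were computed with the exonic sizes of the bulge table. In hair germ SHERRY2, Klf4 averaged 690 ± 263 RPKM, followed by Gata3 at 157 ± 72.6, Cebpb at 108 ± 48.3, Zfp750 at 35.8 ± 19.7 and Trp63 at 20.0 ± 4.22 RPKM. Grhl1 at 17.4 ± 9.01, Grhl3 at 11.4 ± 4.29, Ovol1 at 6.92 ± 5.50 and Prdm1 at 3.67 ± 1.71 RPKM closed the order. Neighbours in it overlapped, apart from Klf4 with Gata3 and Cebpb with Zfp750. In SMART-seq, Klf4 averaged 156 ± 54.1, Trp63 91.1 ± 10.6, Zfp750 53.9 ± 15.9, Cebpb 49.6 ± 7.04 and Gata3 38.4 ± 8.11 RPKM. Grhl1 at 32 ± 9.80, Grhl3 at 9.12 ± 3.20, Ovol1 at 4.94 ± 0.71 and Prdm1 at 3.60 ± 1.36 RPKM followed. Among genes with a read, Klf4 ranked 51 from the top of 45496 in hair germ SHERRY2 and 167 of 29040 in SMART-seq, and Prdm1 14854 and 9538. In SMART-seq the ranges of Trp63 and Zfp750, of Grhl1 and Grhl3, and of Grhl3 and Ovol1 stood apart. Trp63 thus came at rank 2 in the bulge and SMART-seq but at rank 5 in hair germ SHERRY2. Tissue, protocol and annotation differ between these tables, so the order was not tested across them.

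**Figure D1:**
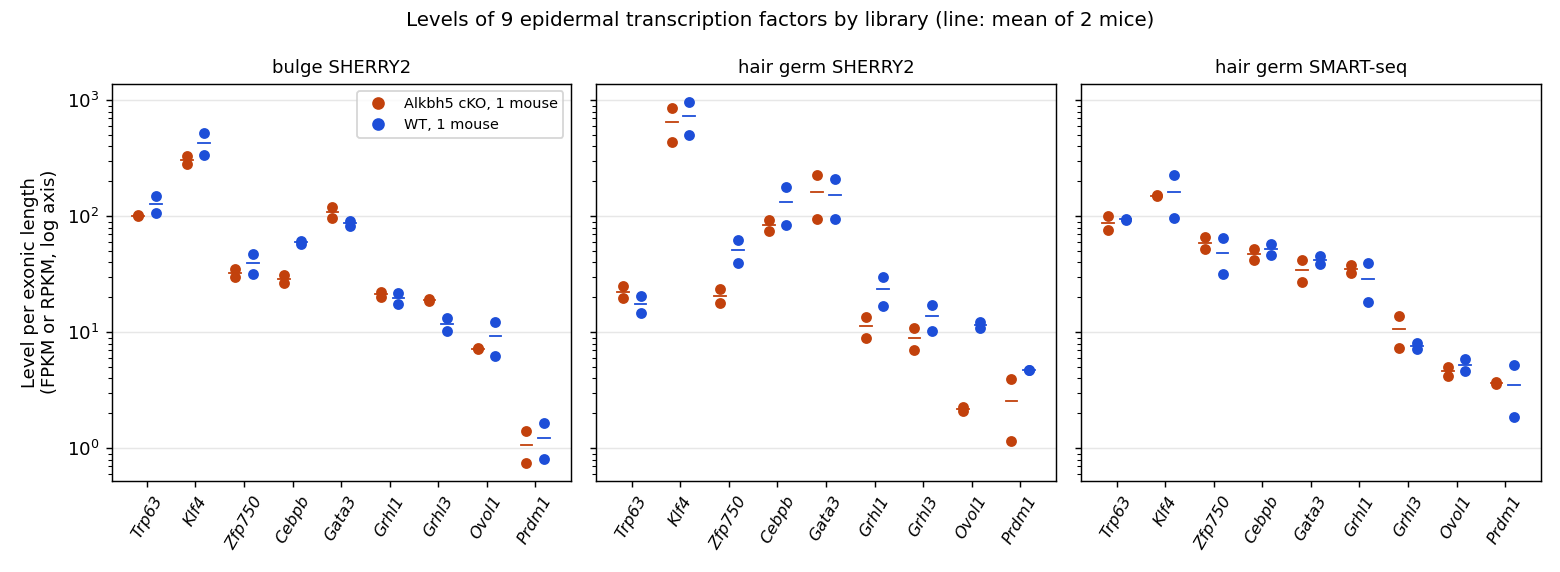
Level per exonic length (log axis; FPKM in the bulge, RPKM in the hair germ) of the 9 genes, with 1 point per mouse, cKO left of WT, and a line at the mean of 2 mice. Klf4 has the highest and Prdm1 the lowest mean over the 4 libraries in all 3 panels; these levels are scaled by each library's total without the scaling used in the tests, so gaps between genotypes can differ from the tested ones.

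In the hair germ SHERRY2 libraries low values need a floor. Olfactory and vomeronasal receptor genes, which serve mainly in sensory neurons, reached a 95th percentile of 4.11 and 1.87 RPKM in cKO mice 1 and 2, against 3.00 and 6.67 RPKM in WT mice 1 and 2. In the bulge libraries that percentile was 0 FPKM. It was taken over 2002 listed receptor genes in the bulge and over 539 in hair germ SHERRY2, so the sets of genes are unlike. Prdm1 lay below the percentile of its own library in 3 of the 4 hair germ SHERRY2 libraries, and Ovol1 lay below it in cKO mouse 1. The other 7 genes lay above it in all 4 libraries.

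Cebpb was the 1 gene of the 9 that differed between genotypes in the bulge. Cebpb stood at 43.9 and 38.0 TMM-scaled CPM in cKO mice, against 99.5 and 90.9 CPM in WT mice. Both cKO libraries were below both WT libraries, and the mice within a genotype lay close together, at 41.0 ± 4.2 CPM in cKO and 95.2 ± 6.1 CPM in WT (SD, n = 2 each). The log2 fold change was -1.22 (SE 0.16, adjusted p = 0.0116, edgeR quasi-likelihood test with Benjamini-Hochberg adjustment over 15672 genes). Of all genes, 3.04% passed that test at 0.05 in either direction and 1.6% were lower in cKO, beside 1 of 9 here. The call held in all 8 alternatives run, with log2 fold changes between -1.29 and -1.13 and adjusted p between 9.91e-08 and 0.0283. Peds1 overlaps Cebpb on the opposite strand, and whether the counting used strand is not given. Its own reads numbered 502 and 450 in cKO mice and 501 and 354 in WT mice, without the gap seen at Cebpb, which had 710 and 799 reads in cKO mice and 1947 and 1278 in WT mice.

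Klf4 and Trp63 had lower values in both cKO mice than in both WT mice but did not pass the test. Klf4 stood at 950 and 811 CPM in cKO mice, against 1713 and 1072 CPM in WT mice. WT mouse 1 was far above the other 3 libraries, and WT mouse 2 lay just above the cKO pair. The log2 fold change was -0.66 (SE 0.26, adjusted p = 0.212, edgeR), and -0.29 without WT mouse 1. DESeq2 gave -0.65 with an adjusted p of 0.0418, the smallest over the alternatives, which ran to 0.533. Trp63 stood at 811 and 795 CPM in cKO mice, against 1361 and 938 CPM in WT mice, with WT mouse 1 again the highest. Its log2 fold change was -0.52 (SE 0.22, adjusted p = 0.263, edgeR), and -0.23 without WT mouse 1. Gene counts pool the full-length and the short forms of p63, which start from different promoters.

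Grhl3, a grainyhead factor needed for the skin barrier, was the gene with higher values in both cKO mice. Grhl3 stood at 48.7 and 50.6 CPM in cKO mice, against 40.0 and 29.8 CPM in WT mice, without overlap. Its log2 fold change of 0.51 (SE 0.19) missed the threshold with an adjusted p of 0.197 (edgeR). On this scale 27.3% of 14103 genes had both cKO libraries below both WT libraries and 24.8% had both above, beside 3 and 1 of the 9 genes. A gap of this kind was therefore common among bulge genes.

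The remaining 5 genes overlapped between genotypes in the bulge. Zfp750, a zinc finger activator of terminal differentiation under p63, stood at 108 and 91.9 CPM in cKO mice, against 166 and 107 CPM in WT mice (log2 fold change -0.45, adjusted p = 0.321, edgeR). Tbcd overlaps it on the opposite strand with 5476 reads over the 4 libraries, beside 8432 reads on Zfp750, so its value is uncertain if strand was not used. Ovol1 stood at 23.6 and 24.0 CPM in cKO mice, against 46.1 and 22.8 CPM in WT mice (-0.53, adjusted p = 0.400). Only WT mouse 1 was high for Ovol1, and without it the log2 fold change turned to 0.06. Prdm1, at 7.36 and 3.95 CPM in cKO mice and 10.1 and 4.69 CPM in WT mice, rested on 66 to 197 reads a library (-0.40, adjusted p = 0.715). Gata3 stood at 366 and 453 CPM in cKO mice and 352 and 382 CPM in WT mice (0.16, adjusted p = 0.684), and Grhl1 at 106 and 116 CPM in cKO mice and 106 and 126 CPM in WT mice (-0.06, adjusted p = 0.885). Both lay within the spread of the mice, although in unscaled FPKM Gata3 had both cKO libraries (97.5 and 121) above both WT libraries (81.8 and 92.0). The share of all genes with such a gap in unscaled FPKM was not counted.

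The median log2 fold change of the 9 genes in the bulge was -0.45, beside -0.01 over all genes tested. Of the 9 values 7 were negative and 2 positive, beside 48.9% positive over all genes. At an unadjusted p under 0.05 there were 4 of the 9, beside 18.9% of all genes. WT mouse 1 was the highest library for 6 of the 9, and cKO mouse 2 the lowest for 5. The median of the 9 was -0.11 without WT mouse 1 and -0.77 without WT mouse 2, and Cebpb was called in both fits. Per unscaled CPM the median of all bulge genes was 0.147 higher in cKO on the log2 scale, and the scaled values given here are relative to that shift.

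**Figure D2:**
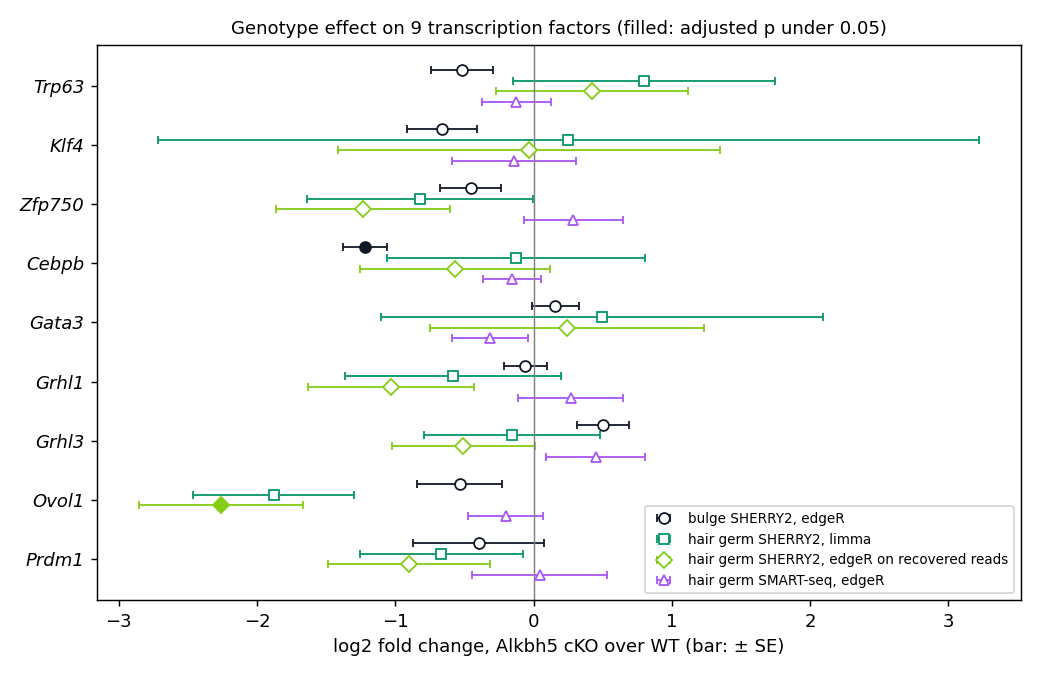
Log2 fold change, cKO over WT, of the 9 genes with bars of ± 1 SE; a filled symbol marks an adjusted p under 0.05. Cebpb in the bulge and Ovol1 in hair germ SHERRY2 by edgeR are filled, and all other symbols are open.

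In hair germ SHERRY2 none of the 9 genes passed the main test, limma on log2(normalized count + 1), and 3 of 38953 genes did (0.0077%). At an unadjusted p under 0.05 there was 1 of the 9, Ovol1, beside 4.62% of all genes, and DESeq2 on recovered reads called 0 genes. Ovol1, a zinc finger repressor at the exit from proliferation, stood at 8.80 and 13.9 normalized counts in cKO mice, against 56.8 and 33.2 in WT mice. Both cKO libraries lay below both WT libraries, as for 16.4% of all genes. The limma log2 fold change was -1.88 (SE 0.58, adjusted p = 0.734). The edgeR test on the whole reads recovered from these values gave -2.26 (SE 0.59, adjusted p = 0.038), 1 call among the 9 beside 0.377% of 16707 genes in either direction and 0.275% lower. These values came from 12 and 17 reads in cKO mice, against 58 and 21 reads in WT mice. The p-values of the edgeR fit on recovered reads hardly measured the spread of a gene's own mice. In cKO mouse 1 Ovol1, at 2.25 RPKM, was under the 95th percentile of the receptor genes (4.11 RPKM) but above their median (1.31 RPKM). Without WT mouse 2 that adjusted p was 0.012. It was 0.341 without WT mouse 1, 0.982 without cKO mouse 1 and 1.00 without cKO mouse 2, so the call was lost without any of these 3 libraries. The log2 fold changes in these fits were -1.92, -2.00 and -2.43, and the fits called 1, 1 and 16 genes in all.

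The other 8 genes overlapped between genotypes in hair germ SHERRY2. Klf4 stood at 1492 and 4912 normalized counts in cKO mice, against 4393 and 1175 in WT mice, so 1 mouse of each genotype was high and the other low (limma log2 fold change 0.25, SE 2.97). Gata3, at 421 and 1721 normalized counts in cKO mice and 1244 and 293 in WT mice, had the same high and low libraries. So had Cebpb, at 125 and 263 normalized counts in cKO mice and 399 and 98.0 in WT mice (log2 fold change -0.12, SE 0.93, adjusted p = 0.992, limma). Grhl3 followed with 22.0 and 58.0 in cKO mice and 71.4 and 22.1 in WT mice. Trp63 stood at 234 and 317 normalized counts in cKO mice, against 256 and 94.9 in WT mice, where WT mouse 2, the shallowest library, was lowest. Zfp750 stood at 85.1 and 110 normalized counts in cKO mice and 296 and 99.6 in WT mice, and Grhl1 at 84.3 and 93.9 in cKO mice and 246 and 72.7 in WT mice, with WT mouse 1 alone high for both. Prdm1 stood at 24.9 and 12.2 in cKO mice and 39.1 and 20.6 in WT mice. Scaled by library totals instead, Zfp750 had 76.0 and 58.3 CPM in cKO mice, against 200.3 and 129 CPM in WT mice, and no longer overlapped. The same held for Grhl1, at 75.4 and 49.6 CPM in cKO mice and 166 and 94.1 CPM in WT mice, and for Prdm1, at 22.3 and 6.47 CPM in cKO mice and 26.4 and 26.6 CPM in WT mice. The share of all genes without overlap on that scale was not counted, so these gaps are not read as particular to these genes. In normalized counts WT mouse 1 was the highest library for 6 of the 9 and WT mouse 2 the lowest for 5. Scaled by library totals, WT mouse 2 was lowest for Trp63 but no longer for Klf4, Grhl1, Gata3 or Cebpb. On that scale Cebpb stood at 112 and 139 CPM in cKO mice, against 270 and 127 CPM in WT mice. The median limma log2 fold change was -0.15 for the 9 genes, beside 0.06 for all genes. It was 0.41 without cKO mouse 1, -0.66 without cKO mouse 2, 0.67 without WT mouse 1 and -1.11 without WT mouse 2. Unscaled CPM put the median of all genes -0.170 away from 0 on the log2 scale.

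In the SMART-seq dataset all 9 genes overlapped between genotypes and none was called, nor was any gene (0% of 17547 by edgeR, and 0 by DESeq2). At an unadjusted p under 0.05 there were 0 of the 9, beside 1.02% of all genes. Cebpb stood at 77.8 and 63.4 CPM in the libraries labelled cKO, against 71.4 and 85.9 CPM in WT libraries (log2 fold change -0.15, SE 0.21). Klf4 stood at 454 and 458 CPM in the libraries labelled cKO, between 717 and 290 CPM in WT libraries (-0.14, SE 0.45). Trp63 stood at 827 and 639 CPM in the libraries labelled cKO and 812 and 786 CPM in WT libraries (-0.12, SE 0.25), and Ovol1 at 17.4 and 14.6 CPM in the libraries labelled cKO and 16.8 and 20.2 CPM in WT libraries (-0.20, SE 0.27). Grhl3 had 38.1 and 20.6 CPM in the libraries labelled cKO and 23.2 and 19.8 CPM in WT libraries (0.45, SE 0.36), where only cKO mouse 1 was high. Zfp750 stood at 210 and 172 CPM in the libraries labelled cKO and 106 and 207 CPM in WT libraries, lowest in WT mouse 1. Grhl1 stood at 176 and 211 CPM in the libraries labelled cKO and 103 and 218 CPM in WT libraries, again lowest in WT mouse 1. Prdm1 stood at 19.8 and 20.8 CPM in the libraries labelled cKO and 10.8 and 28.6 CPM in WT libraries. Gata3 stood at 165 and 108 CPM in the libraries labelled cKO and 188 and 151 CPM in WT libraries (-0.31, SE 0.27). The median log2 fold change of the 9 was -0.12, beside -0.02 for all genes.

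**Figure D3:**
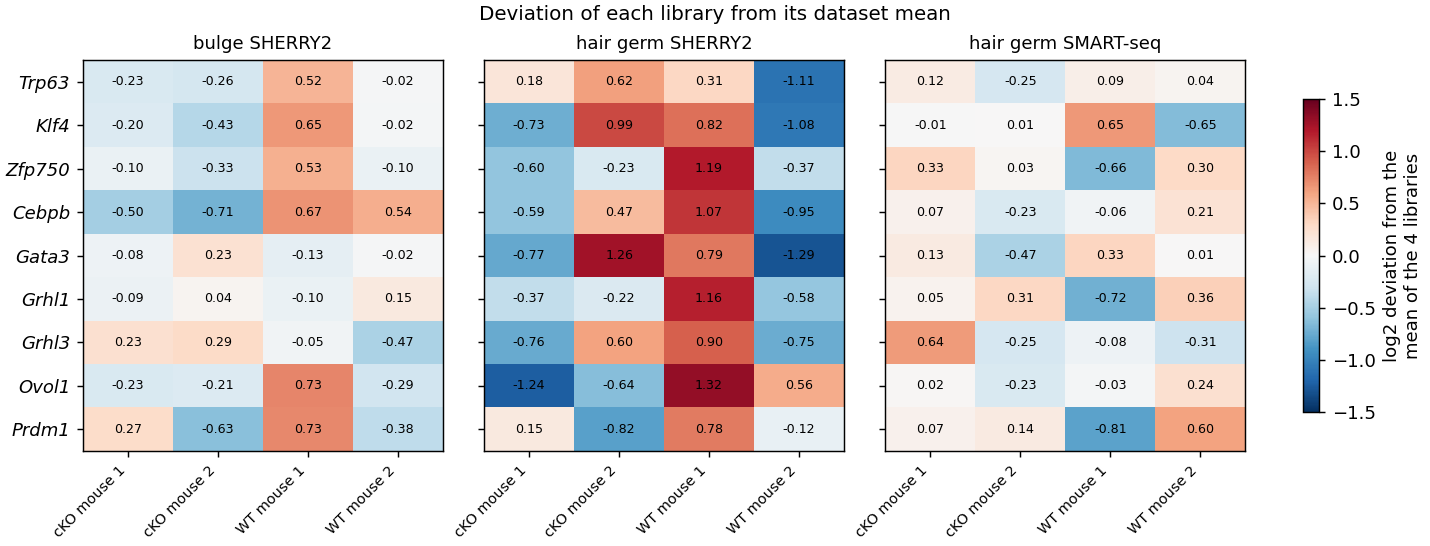
Log2 deviation of each library from the mean of its dataset's 4 libraries (TMM-scaled CPM in the bulge and SMART-seq, normalized counts + 1 in hair germ SHERRY2), with genes in rows and cKO columns left of WT. In the bulge Cebpb is the row in which both cKO cells lie at -0.50 or below and both WT cells at 0.54 or above, and in hair germ SHERRY2 WT mouse 1 lies above 0 in all 9 rows.

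Whether the genotype effects differed between datasets was tested with an interaction term. For Cebpb the effect in the bulge was 1.05 lower on the log2 scale than in SMART-seq (difference -1.05, SE 0.26, adjusted p = 0.538, edgeR), which did not pass, although the unadjusted p was 0.00352. Against hair germ SHERRY2 the difference for Cebpb was -0.53 (SE 0.52, adjusted p = 0.936, edgeR). The fall of Cebpb in the bulge was therefore not shown to be particular to the bulge. For Ovol1 the effect in the bulge minus that in hair germ SHERRY2 was 1.85 (SE 0.55, adjusted p = 0.325, edgeR). Grhl3 differed by 1.16 (SE 0.50) and Grhl1 by 1.07 (SE 0.50) in that comparison, with adjusted p of 0.615 and 0.646 (edgeR). None of the 9 passed either test, beside 0.0424% of 18849 genes against SMART-seq and 0.118% of 26163 genes against hair germ SHERRY2. Against hair germ SHERRY2 the median difference of all genes was 0.20 on the log2 scale, and the positive differences are to be read from there.

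Promoter windows from RefSeq (GRCm38.p6) were at hand for 6 of the 9 genes: Klf4, Grhl1 with 2 windows, Grhl3, Gata3, Prdm1 and Cebpb. Trp63, Ovol1 and Zfp750 are named only. The 250 bases before the start are shown for Cebpb, the called gene, and for Klf4, the most abundant one, with each GC box in capitals (GGGCGG, or CCGCCC on the other strand). Cebpb lies at chr2:167688665-167688914 on the plus strand and Klf4 at chr4:55532476-55532725 on the minus strand, both written 5′ to 3′ along the gene.
Cebpb: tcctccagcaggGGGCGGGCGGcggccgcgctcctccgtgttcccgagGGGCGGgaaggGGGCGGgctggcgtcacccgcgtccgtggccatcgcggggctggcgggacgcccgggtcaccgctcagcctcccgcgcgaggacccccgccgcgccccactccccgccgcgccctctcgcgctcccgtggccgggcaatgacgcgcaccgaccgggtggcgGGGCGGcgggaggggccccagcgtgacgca
Klf4: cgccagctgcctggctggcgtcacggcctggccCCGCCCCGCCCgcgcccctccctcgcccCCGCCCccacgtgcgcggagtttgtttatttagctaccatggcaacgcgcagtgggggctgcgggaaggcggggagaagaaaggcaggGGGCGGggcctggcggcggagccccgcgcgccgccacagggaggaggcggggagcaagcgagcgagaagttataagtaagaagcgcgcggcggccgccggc
Cebpb held 5 GC boxes, starting at -238, -234, -202, -191 and -30 from the gene start, of which the first and second overlap. Klf4 held 4, starting at -217, -212, -189 and -101, again with the first and second overlapping. Of 32851 windows of 300 bases, from 250 before to 50 after the start, 35.7% held a GC box on either strand. Gata3 held 2, Grhl1 2 in 1 of its windows, Grhl3 1 and Prdm1 none. The AP-1 motif TGANTCA was found in Prdm1 at -48, and 7.81% of all windows hold it. The cAMP response element TGACGTCA (1.79% of windows) and the CArG box (1.63%) had no match in these windows, and TATAAA (13.6%) matched in Cebpb, 21 bases past the start. The printed stretches were 81.6% G or C for Cebpb and 74% for Klf4, beside a median of 52.4% over all windows.

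The bulge table names no build, so its positions are given apart from those of RefSeq. It places Cebpb at 167530835 to 167532338 on chromosome 2, Klf4 at 55527143 to 55532466 on chromosome 4, Trp63 at 25502513 to 25710852 on chromosome 16, Grhl3 at 135269199 to 135300941 on chromosome 4 and Ovol1 at 5599164 to 5610674 on chromosome 19. Counts cover all exons of a gene. Gata3 shares its locus with 3 other genes that held 785 reads in the bulge, beside 27721 on Gata3, Ovol1 with 2 genes that held 34 reads, and Trp63 with 2 genes that held 0.

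Among genes that act beside or below these factors, 6 in 4 lists passed the test in the bulge, 1 higher and 5 lower in cKO mice. Of 32 other regulators of epidermal fate, 0 rose and 2 fell. Cebpd, a relative of Cebpb, stood at 17.9 and 8.28 CPM in cKO mice, against 71.5 and 49.4 CPM in WT mice (log2 fold change -2.22, adjusted p = 0.0231, edgeR). Ehf, an epithelial Ets factor, stood at 10.8 and 11.3 CPM in cKO mice, against 22.5 and 29.1 CPM in WT mice (-1.22, adjusted p = 0.0331, edgeR). Cebpa, the third member of that family in the list, stood at 148 and 179 CPM in cKO mice and 186 and 221 CPM in WT mice. Of 20 basal keratinocyte genes, Cd44, a hyaluronan receptor, rose (0.95, adjusted p = 0.0332) and Sfn, a 14-3-3 protein, fell (-1.38, adjusted p = 0.026). Of 15 early differentiation genes, Krtdap fell (-0.76, adjusted p = 0.0425), while the spinous keratin Krt10 stood at 3358 and 3064 CPM in cKO mice and 3269 and 3430 CPM in WT mice. Of 31 cornified envelope and barrier genes tested of 34, Sprr1a, a cornified envelope precursor, fell (-1.92, adjusted p = 0.0386). Each list is read against the 1.44% of all genes that were higher and the 1.6% that were lower. The medians of these 4 lists were -0.18, 0.09, -0.29 and -0.42, beside -0.01 for all genes. The cornified list moved most with the libraries used. Its median was -1.13 with 17 falls without cKO mouse 1, -0.05 with 5 without cKO mouse 2, 0.26 with 3 without WT mouse 1 and -0.84 with 0 without WT mouse 2. It held 4 falls by DESeq2, 7 with a block on mouse number and 11 without a filter on low counts.

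**Figure D4:**
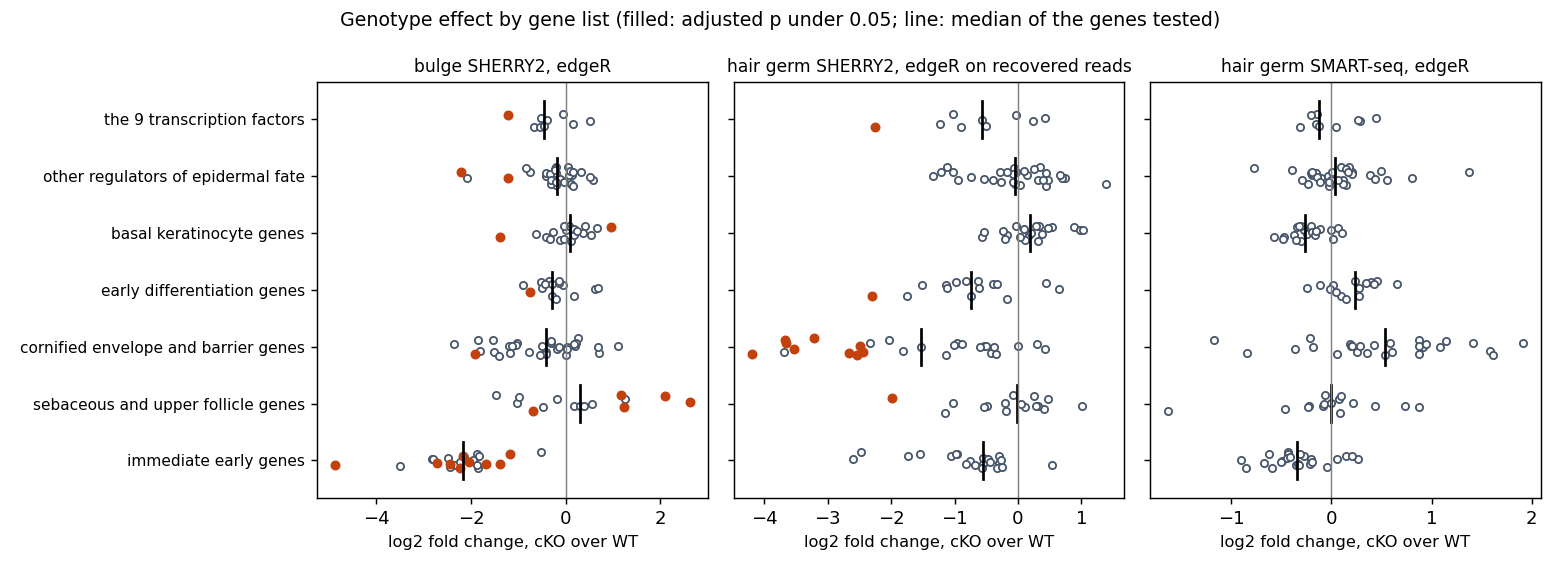
Log2 fold change, cKO over WT, of each gene tested in the 9 factors and 6 companion lists (1 point per gene, filled at an adjusted p under 0.05, line at the median). In the bulge the immediate early genes lie at a median of -2.16, far from the other lists, and in hair germ SHERRY2 by edgeR the cornified genes lie lowest at -1.53.

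Immediate early genes, which answer quickly to stimuli, moved with genotype in the bulge. All 24 had negative log2 fold changes, beside 48.9% positive over all genes. Of the 24, 9 fell, beside 1.6% of all genes, led by Egr3 (-2.05), Egr2 (-2.72), Arc (-4.87), Ier3 (-1.18) and Nr4a2 (-2.23). The list's median was -2.16 (edgeR). It was -3.22 without cKO mouse 1, -1.60 without cKO mouse 2, -1.78 without WT mouse 1 and -2.38 without WT mouse 2. The number that fell was 23 with a block on mouse number, beside 300 of 15672 genes. It was 23 without a filter on low counts, beside 821 of 26954 genes. With DESeq2 size factors it was 13, beside 269 of 15672 genes, and by DESeq2 10, beside 621 of 13367 genes. The summed level of the list was 16798 and 4269 CPM in cKO mice, against 50171 and 31728 CPM in WT mice. WT mouse 1, the library highest for Klf4 and Trp63, also held the largest sum. Immune cell markers were lower as well: 4 of 12 tested fell (Cd74, H2-Aa, H2-Ab1 and Cd83), beside 1.6% of all genes. Their median was -1.75, and -2.19 to -1.48 with 1 library left out. The 13 listed genes summed to 141 and 92.5 CPM in cKO mice, against 309 and 256 CPM in WT mice. The part of either list in the values of Cebpb, Klf4 and Trp63 was not tested. Fibroblast markers summed to at most 24.9 CPM, melanocyte markers to at most 55.8 CPM and endothelial markers to at most 2.78 CPM in any bulge library, and none of them was called. In bulk samples fewer cells of a type and less RNA per cell cannot be told apart. Of 15 sebaceous and upper follicle genes tested of 16, 4 rose (Elovl3 at 2.63, Soat1 at 2.09, Far2 at 1.24 and Scd1 at 1.18) and 1 fell (Plet1 at -0.70). Of all genes 1.44% were higher and 1.6% lower. Without WT mouse 1 there were 0 rises and 2 falls in that list, and without WT mouse 2 there were 0 of either.

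In hair germ SHERRY2 the same lists held no call by limma. By edgeR on recovered reads 9 of 27 cornified genes were called lower, beside 0.275% of all genes. The p-values of that fit hardly measured the spread of a gene's own mice. The median was -1.53 over the list, beside -0.03 for all genes. WT mouse 1 was the high library for the genes named here. Asprv1, a protease that processes filaggrin, stood at 31.5 and 53.9 normalized counts in cKO mice, against 1472 and 9.49 in WT mice (-4.20, adjusted p = 0.00301, edgeR). Ivl, which encodes involucrin, stood at 13.9 and 23.7 normalized counts in cKO mice, against 204 and 11.1 in WT mice (-2.67, adjusted p = 0.00113, edgeR). For both genes WT mouse 2 lay below both cKO mice, so the genotypes overlapped. Cnfn (-3.67), Flg2 (-3.53) and Klk7 (-3.67) had the same high library, as had Dsc1 (-2.31), the 1 of 15 early differentiation genes that fell. The cornified genes summed to 1527 and 2013 CPM in cKO mice, against 9792 and 1126 CPM in WT mice. The median of the list was -1.67 with 0 calls without cKO mouse 1, -2.05 with 2 without cKO mouse 2, 0.63 with 0 without WT mouse 1 and -2.44 with 13 without WT mouse 2. DESeq2 on recovered reads called 0 of them. WT mouse 1 was also the library with the highest normalized counts of Ovol1, Zfp750, Grhl1, Cebpb, Grhl3 and Prdm1. By edgeR on recovered reads the median of the 9 factors was -0.57, 0.44 without WT mouse 1 and -1.10 without WT mouse 2. In SMART-seq no list held a call. There 22 of 27 cornified genes had positive log2 fold changes, beside 48.0% of all genes. The median of the list was 0.54, beside -0.02 for all genes, and ran from -0.03 without cKO mouse 1 to 1.16 without WT mouse 1.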

How the data were processed

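Counts of RNA-seq reads per gene were analysed for 12 libraries; 16 m6A libraries were not analysed here. For the bulge, the authors deposited read counts and FPKM, which the counts, exonic sizes and library sums gave back to within 0.495% (genes of 100 reads and 1 FPKM or more). The signal deposited for hair germ SHERRY2 is a read count divided by a size factor per library. Multiplying by the recovered factor gave whole numbers for 100% of values (tolerance 0.01). The log2 fold changes, scores and p-values deposited beside this signal were not used. For SMART-seq the authors deposited read counts. The submitters' processing notes name STAR, featureCounts, DESeq2, FastQC and Trim Galore with GRCm38 and mm10; for SMART-seq the notes add fastp, HISAT2, SAMtools, Subread and GRCm39. Versions and strand use are not stated.

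The counts of the bulge and of SMART-seq went into edgeR 4.0.16 in R 4.3.3 (quasi-likelihood test, TMM, filterByExpr). The design had foreseen counts or, for normalized values, limma: hair germ SHERRY2 was tested with limma 3.58.1 (trend) on log2(value + 1) where a gene's mean reached 1, with edgeR and DESeq2 1.42.0 on the recovered reads as alternatives. Fold changes on the log2(value + 1) scale understate changes of low genes. All 9 genes passed every filter. Tests were two-sided and adjusted by Benjamini-Hochberg over all genes at 0.05. The fits were checked on simulated counts with the same fixed spread for all genes. That check does not show how the fits perform at the spread of these mice. SE in edgeR is the log2 fold change over the root of F. In the edgeR fit on recovered reads, p-values matched those of a normal curve at the log2 fold change over SE. The spread of a gene's own mice therefore hardly entered them. Interaction fits joined 2 tables by symbol. The 9 genes and all lists were chosen with earlier results of these data known. All 9 were named throughout; of each list, genes past the threshold were named, at most 5 by smallest p, or else the 2 with the smallest p; Krt10, Cebpa, Krt15 and Lef1 were added after their values were seen. Other alternatives were no filter, another pseudocount, DESeq2 size factors, each library left out, and a block on mouse number. That the mice are separate comes from the labels.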

Additional observations from a re-analysis of the deposited data

Results flagged for a closer look

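Alkbh5 was the 1 gene given here whose genotype effect differed between datasets by an interaction test (edgeR). The effect in the bulge minus that in SMART-seq was -4.67 on the log2 scale (SE 0.41, adjusted p = 0.0332), lower in both bulge cKO mice than in both bulge WT mice, while the libraries of SMART-seq overlapped. The effect in the bulge minus that in hair germ SHERRY2 was -2.55 (SE 0.53, adjusted p = 0.042). The bulge against SMART-seq call was lost in 6 of its alternatives and the bulge against hair germ SHERRY2 call in 3, with adjusted p of up to 0.197 and 0.533. Over the alternatives the difference stayed between -5.17 and -4.32 against SMART-seq and between -3.03 and -1.94 against hair germ SHERRY2. None of the 9 transcription factors passed either test.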

How the results depend on the processing

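Depth limits hair germ SHERRY2, where Ovol1 and Prdm1 rest on 12 to 58 reads a library and Grhl3 on 14 to 73. Over Alkbh5 and the 9 genes, 451 values kept direction and side of the threshold, 44 changed sign, 6 gained a call and 9, all of Alkbh5, lost one. The number of genes called in the bulge, 476, was 1191 by DESeq2, 1549 without a filter, 506 with a block on mouse number, and 218 to 1601 with 1 library left out. In hair germ SHERRY2 the 3 calls by limma became 63 by edgeR on recovered reads, and 0 by DESeq2, by a pseudocount of 0.1 and without a filter; 5 with the block; 0 to 105 with 1 library left out; and 1 to 113 in the edgeR fits with 1 library left out (1 without cKO mouse 1, 16 without cKO mouse 2, 1 without WT mouse 1), which were chosen after seeing the data. In SMART-seq 0 calls became 30 without a filter. For the difference between bulge and SMART-seq, 8 calls became 529 without a filter, 3 with the block and 0 to 18 with 1 library left out; for bulge against hair germ SHERRY2, 31 became 11 without a filter, 69 with the block and 30 to 582. The cause was not tested.

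The labels give mouse numbers, which name different mice, and same-numbered mice correlated at -0.07 in the bulge, -0.46 in hair germ SHERRY2 and 0.23 in SMART-seq in their deviations from the group means, so no pairing was used. The replicate block on these numbers changed no call of the 9 genes; Klf4 in SMART-seq changed sign with it, at 0.000597 on the log2 scale.

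Other changes of sign were Klf4 in hair germ SHERRY2 by edgeR (-0.034) and the Gata3 difference from hair germ SHERRY2 without a filter (-0.24). With 1 library left out, log2 values of results that changed sign ranged as follows. They ran from -0.012 to 0.33 for Gata3, -0.18 to 0.061 for Grhl1, -0.96 to 0.060 for Ovol1 and -0.88 to 0.26 for Prdm1 in the bulge. The ranges were -1.45 to 0.29 for Grhl1, -0.55 to 1.54 for Gata3, -1.13 to 0.88 for Cebpb, -0.98 to 0.67 for Grhl3 and -0.70 to 1.20 for Klf4 in hair germ SHERRY2 by limma. They ran from -0.88 to 1.45 for Gata3, -1.14 to 0.59 for Cebpb, -1.15 to 0.44 for Grhl3 and -0.92 to 1.03 for Klf4 in hair germ SHERRY2 by edgeR on recovered reads, among them -0.34 for Gata3 and -0.57 for Klf4 without WT mouse 2 and 0.019 for Grhl3 without cKO mouse 1. The ranges were -0.64 to 0.65 for Klf4, -0.048 to 0.82 for Grhl3, -0.50 to 0.92 for Prdm1, -0.52 to 0.0032 for Alkbh5, -0.12 to 0.86 for Zfp750, -0.17 to 0.91 for Grhl1 and -0.30 to 0.047 for Trp63 in SMART-seq. They ran from -0.95 to 0.12 for Grhl1, -0.31 to 0.58 for Grhl3, -0.75 to 0.29 for Ovol1 and -1.30 to 0.24 for Prdm1 for the difference between bulge and SMART-seq. The ranges were -0.88 to 1.01 for Gata3, -1.29 to 0.23 for Klf4 and -0.034 to 1.48 for Prdm1 for the difference between bulge and hair germ SHERRY2.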

Other observations

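Values of the marker and other companion lists in the hair germ are given here, with no gene past the threshold unless said. In hair germ SHERRY2 by limma, the 2 genes with the smallest p were Plin2 (log2 fold change 1.29) and Awat1 (-0.81) of the sebaceous and upper follicle genes, Fosl1 (-2.03) and Arc (-2.31) of the immediate early genes, Tbx1 (1.80) and Lhx2 (1.61) of the bulge markers, and Msx2 (1.77) and Gli2 (1.42) of the hair germ markers. They were Tyrobp (-0.95) and Cd52 (0.91) of the immune markers, Mfap4 (-0.97) and Pdgfra (-0.86) of the fibroblast markers, Pmel (0.95) and Sox10 (-0.65) of the melanocyte markers, and Kdr (-0.48) and Cldn5 (0.36) of the endothelial markers. By edgeR on recovered reads Tbx1, 1 of 14 bulge markers, was called higher (2.55, adjusted p = 0.024). Scd3, a lipid desaturase and 1 of 16 sebaceous and upper follicle genes, was called lower (-1.98, adjusted p = 0.0438). Of 16707 genes that fit called 17 higher and 46 lower. DESeq2 on recovered reads called 0 genes, so neither call held there. Lhx2 stood at 580 and 45.7 normalized counts in cKO mice, against 53.8 and 52.2 in WT mice, and Lef1 at 79.9 and 13.1 in cKO mice, against 18.6 and 19.0 in WT mice, so cKO mouse 1 alone was high for both.

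Of the regulators and differentiation genes, the smallest limma p in hair germ SHERRY2 belonged to Vdr (1.60), Hes1 (-1.10), Cdh3 (1.20), Itgb1 (0.82), Dsc1 (-1.67), Dsg1a (-0.74), Lce1b (-2.94) and Sprr2d (2.99), none of them called. In SMART-seq they were Cebpa (0.49), Elf3 (0.81), Itgb4 (-0.48), Fgfr2 (-0.30), Calml3 (0.23), Sbsn (0.39), Klk7 (1.61) and Sprr4 (1.58). For the remaining lists of SMART-seq they were Krt79 (0.88), Elovl3 (-1.64), Klf2 (-0.50), Ier3 (-0.90), Lgr5 (-0.53), Lhx2 (-0.25), Lef1 (-1.26), Msx2 (-0.88), Cd207 (3.38), H2-Aa (1.92), Col1a2 (-1.32), Dcn (0.80), Tyrp1 (0.56) and Mitf (-0.23), and no endothelial marker passed the filter on low counts.

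In the bulge the smallest p among the markers that were not called belonged to Foxc1 (-0.84) and Krt15 (-0.77) of the bulge markers, Runx1 (-0.69) and Cxcl14 (-1.18) of the hair germ markers, Dcn (1.03) and Col1a2 (0.24) of the fibroblast markers, Mlana (4.62) and Dct (-1.90) of the melanocyte markers, and Pecam1 (-1.77) of the endothelial markers.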
